A study of Mus musculus with 8 samples.

Results

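Interferon-stimulated antiviral genes are the genes that cells switch on in response to interferons and whose products sense viral nucleic acid, block viral translation and replication, or amplify the interferon signal. The genes described here were a list of 39 such genes, chosen by name with earlier results of these data known. The list is therefore not independent of the values. A member was taken where an array row carried its symbol and no other, and 35 of the 39 had such a row. Ifi47, Parp9 and Dtx3l were found only on rows with several symbols, Ifi44 was on no named row, and these 4 genes are given no value. The 35 members were read against the 18820 genes that had a row with 1 symbol.

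Type I and type III interferons signal through JAK kinases to a transcription factor complex that includes STAT2 and IRF9 and binds the interferon-stimulated response element (ISRE) of its target genes. Interferon gamma acts through gamma-activated sites, and many target genes respond to both routes. Lipopolysaccharide (LPS), a component of the outer membrane of Gram-negative bacteria, is sensed by Toll-like receptor 4, whose TRIF branch leads to IRF3 and to interferon beta, while its other branch leads to the canonical NF-κB pathway.

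Whole-lung RNA was hybridised to 8 arrays, in 4 groups of 2 pools, and each pool held the RNA of 3 mice. The groups were CCSP-p52 mice on doxycycline (dox) with LPS, WT mice on dox with LPS, CCSP-p52 mice on dox alone and WT mice on dox alone. All mice were on an FVB background, 8 to 12 weeks old, and drank 2 g/L dox with 2% sucrose for 1 week. In the LPS groups, LPS had been given into the trachea 48 hours before sacrifice, so the dox-only groups had no LPS and no stated sham instillation. CCSP-p52 mice carry a CCSP-tTS/(tet-O)7-FLAG-p52 transgene together with CCSP-rtTA, and dox induces FLAG-tagged p52, the active form of the non-canonical NF-κB subunit encoded by Nfkb2, in airway epithelium. Such cells are a small part of a whole lung, and p52 mice of the study came from separate founder lines. WT mice were genotype-negative littermates, and they also drank dox. Values are log2 expression levels, so that a difference of 1 is a doubling. Pools of a group are given in the order pool 1, pool 2. The number of arrays limits the precision, and p-values measure the spread between these pools of mice.

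Nfkb2 read 10.20 and 10.33 in the CCSP-p52 dox pools, against 9.51 and 9.58 in the WT dox pools. With LPS it read 11.28 and 10.53 in the CCSP-p52 pools, against 10.83 and 10.56 in the WT pools, so that the genotypes separated without LPS and overlapped with it. Lung epithelial markers averaged between 11.90 and 12.52 on every array. The pools of a group correlated at 0.9807 (CCSP-p52 LPS), 0.9853 (WT LPS), 0.9962 (CCSP-p52 dox) and 0.9963 (WT dox) over all rows. WT LPS pool 2 also held transcripts of squamous epithelium, averaging 10.77 over 5 markers against 5.88 to 6.10 on the other arrays, and of skeletal muscle, averaging 9.75 over 5 markers against 7.24 to 7.83. The main counts of members are therefore also given without it.

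To show the sequence context of the members, promoter windows of 300 bases, 250 before to 50 after the start of a gene, were taken from RefSeq (build GRCm38.p6). Of the 35 members, 27 matched a promoter. An ISRE core, searched as GAAANNGAAA on both strands, was present in the windows of 14 of these 27 genes (51.9%), against 3.99% of all 27025 genes with a promoter and 3.44% of all 32851 promoters. A gamma-activated site, searched as TTCNNNGAA, was present in 7 of the 27 (25.9%), against 9.55% of all genes and 8.3% of all promoters. A kappa B site, searched as GGGNNTTTCC on both strands, was found in 0 of the 27, against 1.89% of all genes and 1.63% of all promoters. The members' windows held 23 ISRE cores at separate positions, 2 of them in different windows of Trim30a, and 1 of the 23 overlapped a gamma-activated site. These matches are letters in a window, and no binding was measured.

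The windows below are those of the 6 members with the largest LPS difference among the genes with an ISRE core, shown because they display how the core is repeated and oriented. Each runs 5′ to 3′ on the strand of its gene, with 20 bases on each side and the cores in capitals.
Oas3: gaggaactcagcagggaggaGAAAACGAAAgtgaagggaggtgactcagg
Rsad2: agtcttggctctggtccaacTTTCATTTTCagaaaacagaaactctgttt
Ifit1: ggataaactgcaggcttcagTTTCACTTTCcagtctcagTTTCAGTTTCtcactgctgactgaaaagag
Oas1a: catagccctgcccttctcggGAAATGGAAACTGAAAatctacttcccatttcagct
Isg15: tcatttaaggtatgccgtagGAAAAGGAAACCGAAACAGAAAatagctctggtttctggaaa
Trim30a: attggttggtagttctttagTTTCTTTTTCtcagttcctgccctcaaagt
The Oas3 window lies at chr5:120777705-120777754 on the minus strand, that of Rsad2 at chr12:26456543-26456592 (minus), that of Ifit1 at chr19:34640765-34640833 (plus), that of Oas1a at chr5:120907510-120907565 (minus), that of Isg15 at chr4:156200855-156200916 (minus) and that of Trim30a at chr7:104465200-104465249 (minus). The Isg15 window held 3 overlapping cores in tandem, Oas1a held 2 overlapping cores and Ifit1 held 2 separate cores in the reverse orientation. Oas3 held 1 core, and Rsad2 and Trim30a held 1 core each in the reverse orientation. The Oas1a window reached from position -40 to position 15 relative to the start, and the Rsad2 window lay the farthest upstream of the 6, from position -140 to position -91.

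The first question was how the members differed 48 hours after LPS. Every measured member rose: 35 of 35 were higher with LPS at an adjusted p under 0.05 in the additive limma model over p52 and LPS, against 13.5% of all genes, and 0 were lower. The median log2 difference of the members was 1.55, or 2.92-fold, against 0.0046 over all genes. The range ran from 0.49 for Ifi35 to 3.48 for Zbp1, 29 members differed by at least 1, 13 by at least 2 and 2 by at least 3. In all 35 members the 4 LPS arrays lay above the 4 arrays without LPS, which was so for 15.1% of all genes. The gap between the lowest LPS array and the highest array without LPS was 0.94 at the median, from 0.04 for Ddx58 to 2.45 for Zbp1. In whole-lung RNA, more cells that express a gene and more RNA of it per cell cannot be told apart.

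**Figure D1:**
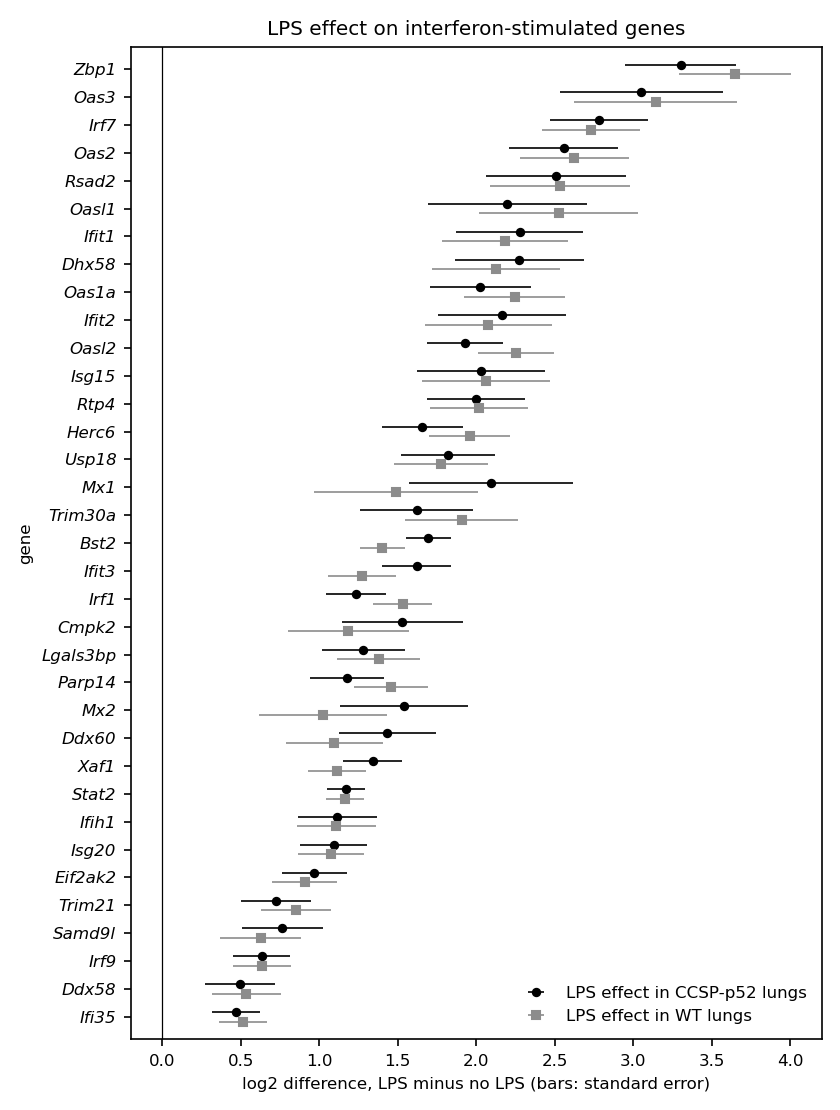
Log2 difference between LPS and no LPS for the 35 measured members, in CCSP-p52 lungs (black circles) and in WT lungs (grey squares), with bars of 1 standard error from the 4-group limma model, ordered by the additive LPS difference. All points lie to the right of 0, from 0.47 for Ifi35 to 3.65 for Zbp1, and the bars of the genotypes overlap for most genes.

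Upstream of the members, most interferon ligands that had a row showed no called difference. Of 10 ligand genes listed, 6 had a row, 1 rose and 1 fell. Ifna1, Ifna2, Ifna5 and Ifnl3 had no such row. Ifnb1, Ifna4, Ifne and Ifnk read below the array medians of 7.48 to 7.54 on all 8 arrays. A change at such low readings could be missed. Ifng, which encodes interferon gamma, read 10.35 and 8.64 in the CCSP-p52 LPS pools and 9.97 and 9.45 in the WT LPS pools, against 6.60 and 6.66 in the CCSP-p52 dox pools and 6.45 and 6.38 in the WT dox pools. It rose by 3.08 (SE 0.33; limma adjusted p = 0.000439). Ifna4 fell by 0.23 (SE 0.07; limma adjusted p = 0.0412), with all 8 arrays between 5.32 and 5.81. Ifnb1, which encodes interferon beta, read between 5.34 and 6.02 on the 8 arrays and differed by 0.10 (SE 0.15; limma adjusted p = 0.628). Ifnl2, an interferon lambda, differed by 0.09 (SE 0.08; limma adjusted p = 0.406).

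Among 6 receptor chains, 1 rose and 0 fell: Ifnar2, a chain of the type I receptor, was higher by 0.47 (limma adjusted p = 0.0127). Of the 3 JAK family kinases measured, Jak2 rose by 0.98 (limma adjusted p = 0.00265), and Jak1 and Tyk2 differed by 0.05 each. Of 14 genes that lead to interferon production, 11 rose and 1, the adaptor Mavs, fell. The members of that list with the lowest p were Irf8, higher by 1.27, Ikbke, a kinase of IRF3 and IRF7, higher by 2.52, Sting1, the adaptor for cyclic dinucleotides, higher by 1.97, and Tbk1, higher by 0.72. Of 6 brakes on interferon signalling, 5 rose, led by Socs1 (2.16) and Socs3 (1.92), suppressors of cytokine signalling, and by the phosphatases Ptpn6 (1.62) and Ptpn2 (0.89). Of 31 other interferon-stimulated genes with a row, 25 rose and 0 fell, with a median of 0.66, and those with the lowest p were Slfn1 (3.36), Slfn2 (2.20), Ifi205 (1.98) and Slfn8 (2.54).

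The 4 members of the interferon signalling and transcription factor group all rose, with a median of 1.28. Stat2, a part of the ISRE-binding complex, read 11.13 and 10.92 in the CCSP-p52 LPS pools and 11.04 and 10.90 in the WT LPS pools, against 9.97 and 9.74 in the CCSP-p52 dox pools and 9.81 and 9.80 in the WT dox pools. It rose by 1.17 with the smallest standard error of any member (0.08; limma adjusted p = 0.000110), and its LPS pools lay close together. Irf7, the transcription factor that amplifies type I interferon production, read 11.97 and 10.99 in the CCSP-p52 LPS pools and 11.57 and 11.26 in the WT LPS pools, against 8.82 and 8.57 in the CCSP-p52 dox pools and 8.86 and 8.51 in the WT dox pools. Its rise of 2.76 (SE 0.20; limma adjusted p = 0.000127) was 6.76-fold and the third largest of the members. Irf1, a transcription factor induced by interferon gamma, rose by 1.38 (SE 0.14), and Irf9, the DNA-binding part of the same complex, by 0.63 (SE 0.12). A second, lower row of Irf1 differed by 0.09 (SE 0.11; limma adjusted p = 0.55), so that the rows of this gene disagreed.

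All 5 nucleic acid sensors rose, over the widest range of any group, from 0.52 to 3.48. Zbp1, a sensor of Z-form nucleic acid that can trigger necroptosis, read 12.13 and 11.11 in the CCSP-p52 LPS pools and 11.91 and 11.68 in the WT LPS pools, against 8.66 and 7.98 in the CCSP-p52 dox pools and 8.28 and 8.02 in the WT dox pools. Its difference of 3.48 (SE 0.24; limma adjusted p = 0.000104) was 11.1-fold, the largest of the members in size and the lowest in p. Dhx58, which encodes LGP2, a relative of RIG-I without the signalling domain, read 10.58 and 9.23 in the CCSP-p52 LPS pools and 10.08 and 9.53 in the WT LPS pools, against 7.76 and 7.49 in the CCSP-p52 dox pools and 7.74 and 7.62 in the WT dox pools. It rose by 2.20 (SE 0.27; limma adjusted p = 0.000779), and its LPS pools stood well above all pools without LPS while spreading widely among themselves. The 2 RNA sensors that signal through MAVS differed by less: Ifih1, which encodes MDA5, rose by 1.11 (SE 0.16) and Ddx58, which encodes RIG-I, by 0.52 (SE 0.15; limma adjusted p = 0.0269). Ddx58 read 11.22 and 10.54 in the CCSP-p52 LPS pools and 10.99 and 10.79 in the WT LPS pools, against 10.50 and 10.26 in the CCSP-p52 dox pools and 10.44 and 10.27 in the WT dox pools, and CCSP-p52 LPS pool 2 almost met the highest pool without LPS. Its call held in 4 of 8 fits that left out 1 array each, where the highest adjusted p was 0.0828. Ddx60, a helicase linked to RIG-I signalling, rose by 1.26 (SE 0.21).

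The IFIT proteins bind viral RNA and keep it from the translation machinery, and all 3 members rose, with a median of 2.12. Ifit1 read 10.91 and 9.60 in the CCSP-p52 LPS pools and 10.59 and 9.97 in the WT LPS pools, against 8.06 and 7.90 in the CCSP-p52 dox pools and 8.17 and 8.03 in the WT dox pools. It rose by 2.23 (SE 0.26; limma adjusted p = 0.000687), with the 4 pools without LPS close together. Ifit2 read 11.75 and 10.29 in the CCSP-p52 LPS pools and 11.07 and 10.99 in the WT LPS pools, against 8.98 and 8.73 in the CCSP-p52 dox pools and 8.97 and 8.93 in the WT dox pools, a rise of 2.12 (SE 0.27). For this gene the WT LPS pools lay close together while the CCSP-p52 LPS pools stood on either side of them. Ifit3 read 11.51 and 10.90 in the CCSP-p52 LPS pools and 11.27 and 11.00 in the WT LPS pools, against 9.73 and 9.43 in the CCSP-p52 dox pools and 9.96 and 9.77 in the WT dox pools, a rise of 1.45 (SE 0.16; limma adjusted p = 0.000470). Ifit3 has a close copy, Ifit3b, and probes of an array of this kind may not separate near-identical genes of the Ifit, Oas1 and Trim30 families.

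The OAS family, whose enzymes make the oligoadenylates that activate RNase L, had the highest median of the groups, 2.36, and all 5 members rose by more than 2. Oas3 read 10.83 and 9.08 in the CCSP-p52 LPS pools and 10.18 and 9.48 in the WT LPS pools, against 6.82 and 6.99 in the CCSP-p52 dox pools and 6.77 and 6.60 in the WT dox pools. It rose by 3.10 (SE 0.34; limma adjusted p = 0.000494), or 8.56-fold, and its CCSP-p52 LPS pools were 1.76 apart, the widest gap of any member. Oas2 read 10.62 and 9.50 in the CCSP-p52 LPS pools and 10.28 and 9.87 in the WT LPS pools, against 7.67 and 7.33 in the CCSP-p52 dox pools and 7.52 and 7.38 in the WT dox pools. Its rise of 2.59 (SE 0.23; limma adjusted p = 0.000218) was 6.02-fold.

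Oas1a, whose promoter window is among those shown, read 10.32 and 9.16 in the CCSP-p52 LPS pools and 9.75 and 9.70 in the WT LPS pools, against 7.78 and 7.65 in the CCSP-p52 dox pools and 7.49 and 7.47 in the WT dox pools, and rose by 2.14 (SE 0.21; limma adjusted p = 0.000365). The WT pools of this gene nearly coincided in both conditions. Oasl1 and Oasl2 encode OAS-like proteins, and mouse OASL1 is known as a translational repressor of Irf7. Oasl1 read 10.60 and 8.98 in the CCSP-p52 LPS pools and 10.28 and 9.46 in the WT LPS pools, against 7.51 and 7.68 in the CCSP-p52 dox pools and 7.51 and 7.17 in the WT dox pools, a rise of 2.36 (SE 0.33). Oasl2 read 12.51 and 11.85 in the CCSP-p52 LPS pools and 12.58 and 12.22 in the WT LPS pools, against 10.40 and 10.10 in the CCSP-p52 dox pools and 10.27 and 10.03 in the WT dox pools, a rise of 2.09 (SE 0.17; limma adjusted p = 0.000168). Oasl1 spread widely between LPS pools and Oasl2 little, and neither overlapped with the pools without LPS.

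**Figure D2:**
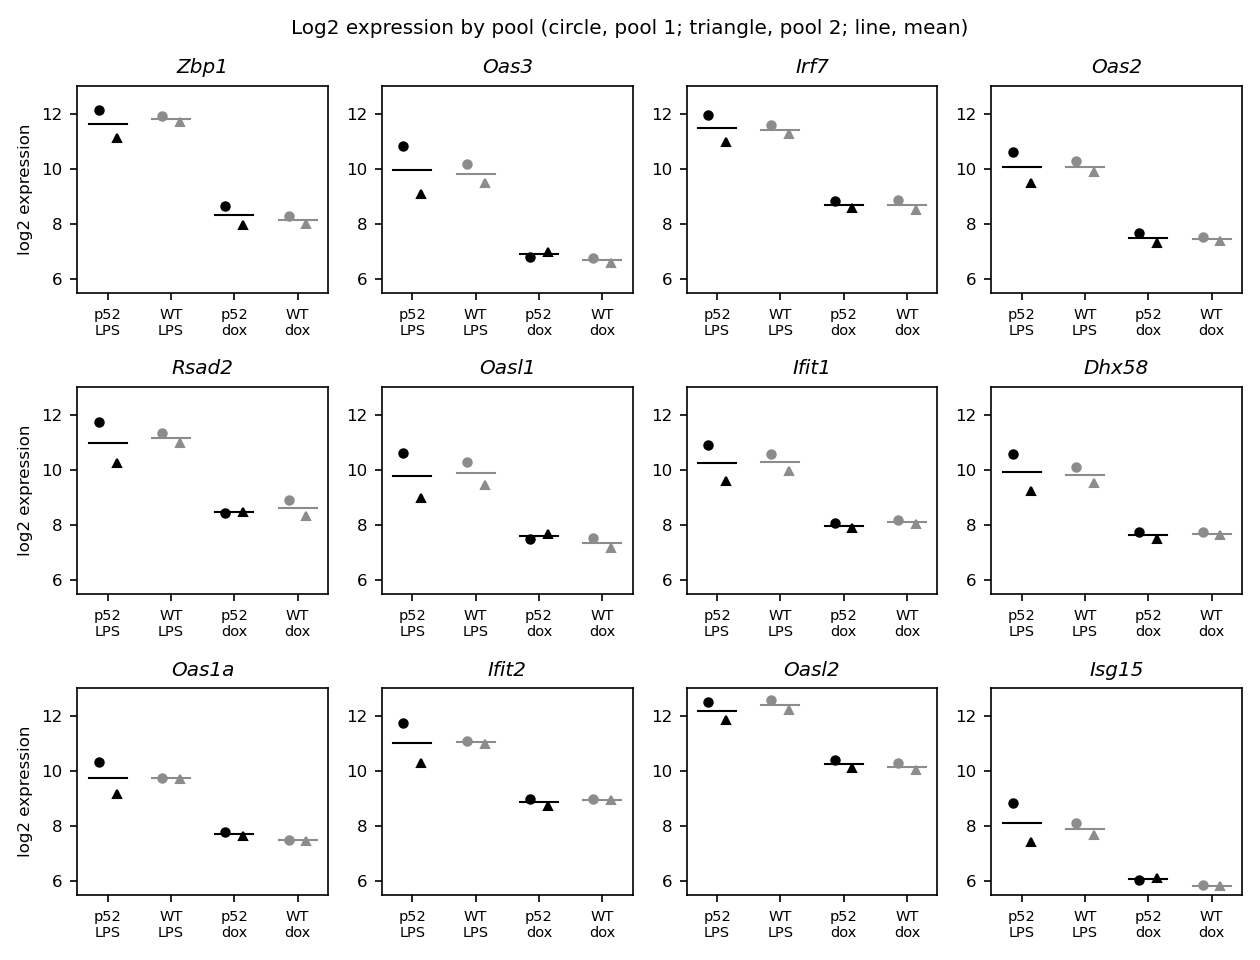
Log2 expression of the 12 members with the largest LPS difference in each pool of CCSP-p52 LPS (black, left), WT LPS (grey), CCSP-p52 dox (black) and WT dox (grey, right) lungs, with circles for pool 1, triangles for pool 2 and lines for the mean of the pools. The LPS pools lie above the pools without LPS in every panel, and the CCSP-p52 LPS pools are the farthest apart, by 1.76 for Oas3.

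The Mx GTPases, which trap viral nucleocapsids, rose with large errors. Mx1 read 9.32 and 7.64 in the CCSP-p52 LPS pools and 8.62 and 7.73 in the WT LPS pools, against 6.52 and 6.25 in the CCSP-p52 dox pools and 6.70 and 6.67 in the WT dox pools. It rose by 1.79 (SE 0.36; limma adjusted p = 0.00623), and pool 2 was well below pool 1 in both LPS groups. Mx2 read 8.54 and 7.15 in the CCSP-p52 LPS pools and 7.74 and 7.28 in the WT LPS pools, against 6.39 and 6.22 in the CCSP-p52 dox pools and 6.55 and 6.42 in the WT dox pools, a rise of 1.28 (SE 0.28; limma adjusted p = 0.00950). The Mx1 gene is known to be inactive in many inbred mouse strains, and the arrays measured its transcript only.

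In the ISG15 system, Isg15 encodes a ubiquitin-like modifier, Usp18 the protease that removes it and restrains the type I receptor, and Herc6 the ligase that attaches it in mice. Isg15 read 8.83 and 7.41 in the CCSP-p52 LPS pools and 8.10 and 7.69 in the WT LPS pools, against 6.06 and 6.12 in the CCSP-p52 dox pools and 5.86 and 5.81 in the WT dox pools, a rise of 2.04 (SE 0.27; limma adjusted p = 0.00106). Usp18 read 11.77 and 10.81 in the CCSP-p52 LPS pools and 11.55 and 11.13 in the WT LPS pools, against 9.58 and 9.35 in the CCSP-p52 dox pools and 9.58 and 9.54 in the WT dox pools, a rise of 1.80 (SE 0.20; limma adjusted p = 0.000489). Herc6 read 11.23 and 10.41 in the CCSP-p52 LPS pools and 11.16 and 10.90 in the WT LPS pools, against 9.31 and 9.02 in the CCSP-p52 dox pools and 9.12 and 9.02 in the WT dox pools, a rise of 1.81 (SE 0.18; limma adjusted p = 0.000334). The modifier, its protease and its ligase thus rose by similar amounts, 1.80 to 2.04.

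Of the TRIM and PARP proteins, 3 of 5 were measured and all 3 rose. Trim30a, a negative regulator of Toll-like receptor signalling in mice, read 12.13 and 11.04 in the CCSP-p52 LPS pools and 12.02 and 11.86 in the WT LPS pools, against 10.26 and 9.67 in the CCSP-p52 dox pools and 10.20 and 9.87 in the WT dox pools. It rose by 1.76 (SE 0.24; limma adjusted p = 0.00129), and CCSP-p52 LPS pool 2 was clearly the lowest of the LPS pools. Parp14, a mono-ADP-ribosyltransferase, read 11.57 and 10.78 in the CCSP-p52 LPS pools and 11.47 and 11.35 in the WT LPS pools, against 10.08 and 9.91 in the CCSP-p52 dox pools and 9.96 and 9.95 in the WT dox pools, a rise of 1.32 (SE 0.16; limma adjusted p = 0.000806). Trim21, a cytosolic antibody receptor with ubiquitin ligase activity, rose by 0.79 (SE 0.15).

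Among effectors that act on RNA synthesis and decay, all 4 rose. Rsad2, which encodes viperin, an enzyme that makes a chain-terminating nucleotide, read 11.72 and 10.24 in the CCSP-p52 LPS pools and 11.32 and 10.97 in the WT LPS pools, against 8.45 and 8.49 in the CCSP-p52 dox pools and 8.90 and 8.32 in the WT dox pools. It rose by 2.52 (SE 0.29; limma adjusted p = 0.000634), or 5.74-fold. Its neighbour in the pathway Cmpk2, a nucleotide kinase that supplies its substrate, rose by 1.36 (SE 0.26). Isg20, an RNA exonuclease, read 11.91 and 11.28 in the CCSP-p52 LPS pools and 11.69 and 11.45 in the WT LPS pools, against 10.59 and 10.42 in the CCSP-p52 dox pools and 10.58 and 10.41 in the WT dox pools, a rise of 1.08 (SE 0.14; limma adjusted p = 0.000994). Eif2ak2, the kinase PKR that stops translation on sensing double-stranded RNA, rose by 0.94 (SE 0.14).

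The remaining effectors were 6 measured genes, and all rose. Bst2, which encodes tetherin, the membrane protein that holds budding virions on the cell, read 10.64 and 10.26 in the CCSP-p52 LPS pools and 10.14 and 10.08 in the WT LPS pools, against 8.79 and 8.73 in the CCSP-p52 dox pools and 8.61 and 8.81 in the WT dox pools. It rose by 1.55 (SE 0.11; limma adjusted p = 0.000108), the second lowest p of the members. Rtp4, a receptor transporter protein, read 11.32 and 10.49 in the CCSP-p52 LPS pools and 11.05 and 10.70 in the WT LPS pools, against 9.16 and 8.65 in the CCSP-p52 dox pools and 9.06 and 8.65 in the WT dox pools, a rise of 2.01 (SE 0.20; limma adjusted p = 0.000373). Samd9l, a restriction factor, read 10.53 and 9.75 in the CCSP-p52 LPS pools and 10.31 and 9.98 in the WT LPS pools, against 9.53 and 9.22 in the CCSP-p52 dox pools and 9.61 and 9.43 in the WT dox pools, a rise of 0.70 (SE 0.17; limma adjusted p = 0.0151). Its call was lost without CCSP-p52 dox pool 2, at an adjusted p of 0.0503. Lgals3bp, a secreted glycoprotein, rose by 1.33, Xaf1, a partner of the apoptosis inhibitor XIAP, by 1.23 and Ifi35, a partner of Nmi, by 0.49.

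The second question was the LPS difference within each genotype, from a 4-group model. In CCSP-p52 lungs 27 of 35 members rose with LPS at an adjusted p under 0.05, against 4.31% of all genes, with a median log2 difference of 1.62. In WT lungs 28 of 35 rose, against 8.07% of all genes, with a median of 1.49. The members that missed the threshold in both genotypes were Ifi35, Mx1, Mx2, Irf9, Ddx58, Cmpk2 and Samd9l, and Trim21 also missed it in CCSP-p52 lungs, at an adjusted p of 0.0867 from limma. All 35 differences were positive in each genotype. These counts turned on single pools. A fit without 1 pool leaves 1 array in its group, and that array adds nothing to the measured spread. Among the CCSP-p52 dox pools, leaving out pool 2 gave a CCSP-p52 count of 0, against 0.17% of all genes, and leaving out pool 1 a count of 3, against 0.393%. The count was 15 without either WT dox pool, against 1.82% of all genes, and 35 without CCSP-p52 LPS pool 2, against 11.9%. The WT count was 5 without WT dox pool 2, 6 without WT dox pool 1, 9 without WT LPS pool 1 and 23 without WT LPS pool 2, against 0.68%, 1.16%, 3.09% and 4.78% of all genes, while the WT median stayed between 1.40 and 1.66. With the pool number as a replicate block the counts were 34 in CCSP-p52 and 34 in WT lungs, where 7.55% and 11.1% of all genes passed.

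The third question was what p52 did to these genes. In the additive model 0 members reached the cut-off used for p52, 0.41 or more in log2 size together with an unadjusted limma p no higher than 0.05, against 0.228% of all genes higher and 0.0425% lower. An unadjusted limma p under 0.05 was found for 0 members, against 1.42% of all genes higher and 0.893% lower. The median difference, CCSP-p52 minus WT, was -0.0016, and the 35 values ran from -0.21 for Trim30a to 0.24 for Isg15 with a median SE of 0.20. Without LPS, 0 members reached the cut-off, against 0.569% of all genes higher and 0.165% lower, and 0 had an unadjusted limma p under 0.05, against 1.22% of all genes higher and 0.51% lower. The median there was 0.0085, with values from -0.31 to 0.25 and a median SE of 0.30. Nfkb2 itself was higher in CCSP-p52 dox than in WT dox lungs by 0.72 (SE 0.23) in the same comparison, where it reached the cut-off.

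With LPS, 0 members reached the cut-off, against 0.972% of all genes higher and 1.09% lower. An unadjusted limma p under 0.05 was found for 1 of 35, Bst2, which was higher, against 3.1% of all genes higher and 3.77% lower, so that the members' share was near that of all genes. Bst2 read 10.64 and 10.26 in the CCSP-p52 LPS pools, against 10.14 and 10.08 in the WT LPS pools. Its difference was 0.34 (SE 0.14; limma adjusted p = 0.713), and 0.31 (SE 0.19; limma adjusted p = 0.869) without WT LPS pool 2, where its unadjusted p was above 0.05. The median over the members was -0.011, with values from -0.36 to 0.34. The difference of the LPS effect between genotypes, tested as an interaction, reached the cut-off in 0 members, against 1.24% of all genes higher and 2.38% lower. Its lowest unadjusted limma p was 0.188, for Bst2, and its median was -0.0039 with a median SE of 0.42. A difference that misses the cut-off with errors of this size does not show that the genotypes were alike.

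The members showed a clear order among the 4 LPS pools that did not follow genotype. CCSP-p52 LPS pool 1 held the highest value in 33 of 35 members and CCSP-p52 LPS pool 2 the lowest in 32 of 35, against 24.3% and 32.6% of all genes. The exceptions were Irf1 and Oasl2, highest in WT LPS pool 1, and Stat2, Xaf1 and Bst2, lowest in WT LPS pool 2. The full order CCSP-p52 pool 1, WT pool 1, WT pool 2, CCSP-p52 pool 2 held for 30 of 35 members, against 9.5% of all genes. Without WT LPS pool 2, the order of the remaining 3 pools held for 32 of 35 members, against 20.1% of all genes. Members share cells and libraries and are not independent, so this is a description of 4 pools. The same order was shown by Ifng, with 10.35, 9.97, 9.45 and 8.64 in those pools, but not by Ifng alone. Monocyte and macrophage markers averaged 11.325, 11.318, 11.007 and 10.276 in the same pools, so the pools numbered 1 were nearly equal. Plasmacytoid dendritic cell markers (9.03, 8.93, 8.63 and 8.41) and other interferon-stimulated genes (10.74, 10.56, 10.33 and 10.19) also held the order. The means of lung endothelial and epithelial markers held the reverse order. The means of neutrophil and of T and NK cell markers were instead highest in WT LPS pool 1.

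Pool 1 exceeded pool 2 by a median of 0.83 in CCSP-p52 LPS lungs (35 of 35 members, from 0.21 for Stat2 to 1.76 for Oas3) and by 0.31 in WT LPS lungs (35 of 35, from 0.05 for Oas1a to 0.88 for Mx1). Without LPS the medians were 0.24 in CCSP-p52 lungs (31 of 35 positive) and 0.14 in WT lungs (32 of 35 positive). Over all genes the medians of the same differences lay between -0.013 and 0.035. The sign of the p52 difference with LPS depended on the pool number. Between the pools numbered 1 it was positive in 33 of 35 members with a median of 0.23, against 46.8% of all genes positive. Between the pools numbered 2 it was negative in 32 of 35 with a median of -0.29, where 51.6% of all genes were positive. The largest differences were 0.80 for Mx2 between the pools numbered 1 and -0.82 for Trim30a between the pools numbered 2. Without LPS the p52 difference was positive in 23 of 35 members between the pools numbered 1, against 44.8% of all genes. Between the pools numbered 2 it was negative in 24 of 35, where 53.3% of all genes were positive. The LPS difference was positive in 35 of 35 members within each pool number and genotype, against 42.8% to 51.3% of all genes.

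**Figure D3:**
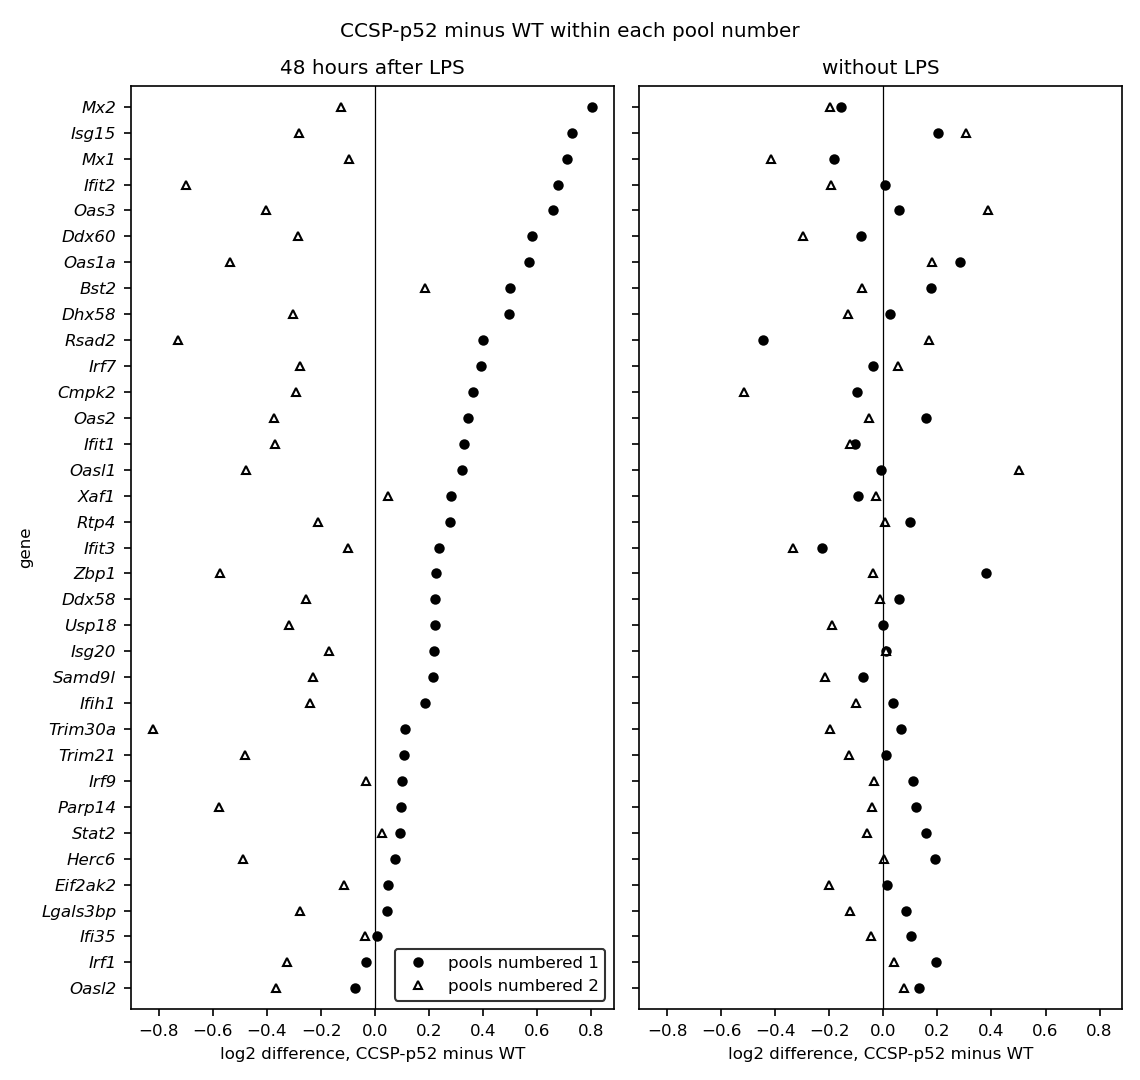
Log2 difference between CCSP-p52 and WT for each of the 35 measured members within pool numbers, with filled circles for the pools numbered 1 and open triangles for the pools numbered 2, with LPS (left) and without LPS (right). With LPS the circles lie to the right of 0 in 33 of 35 members and the triangles to the left in 32 of 35. Without LPS the values lie closer to 0 at the median, with 23 circles to the right and 24 triangles to the left.

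Leaving out 1 CCSP-p52 LPS pool turned the p52 result in opposite directions. Without CCSP-p52 LPS pool 1, 17 members reached the cut-off with lower levels in CCSP-p52 than in WT lungs with LPS, against 6.41% of all genes in the same fit, and the median of all members was -0.49. Rsad2 (-0.91), Trim30a (-0.90) and Oasl1 (-0.89) were the lowest. Without CCSP-p52 LPS pool 2, 13 members were higher, against 1.74% of all genes, among them Mx1 (1.15), Mx2 (1.04) and Oas3 (1.01), and the median of all members was 0.43. The interaction reached the cut-off in 10 members in each of these fits, all lower in the first, against 7.06% of all genes, and all higher in the second, against 2.21%. In the additive model Isg15 (0.53) and Oas3 (0.54) reached the cut-off without CCSP-p52 LPS pool 2, against 0.441% of all genes higher. Without WT LPS pool 2, which held squamous and muscle transcripts, 0 members reached the cut-off in the p52 difference with LPS (median -0.18), against 1.55% of all genes higher and 1.31% lower, or in the interaction, against 1.9% higher and 2.1% lower. In that fit 35 of 35 still rose with LPS in the additive model, against 12.6% of all genes, with a median of 1.59.

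Markers of other cells moved alongside the members, and their part in the results was not tested. Over all genes 13.5% rose with LPS in the additive model and 20.8% fell. Of the lists, 9 of 9 neutrophil markers rose with LPS, with a median of 3.75, and their mean level was 10.77 and 10.39 in the CCSP-p52 LPS pools and 10.94 and 10.35 in the WT LPS pools, against 6.89 to 7.45 in the pools without LPS. Of the monocyte and macrophage markers, 7 of 7 rose with a median of 2.76. Of 5 plasmacytoid dendritic cell markers, cells known for type I interferon production, 2 rose (Siglech by 1.11 and Ccr9 by 1.15) and 1, Tcf4, fell. Of the lung endothelial markers 6 of 7 fell, and of the lung epithelial markers 4 of 8 fell, against the 20.8% of all genes. Alveolar macrophage markers gave 2 higher and 1 lower of 7, T and NK cell markers 3 higher and 0 lower of 9, and B cell markers 0 higher and 3 lower of 5.

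The same lists differed between the CCSP-p52 LPS pools. Monocyte and macrophage markers averaged 11.32 and 10.28 in CCSP-p52 LPS pools 1 and 2, with 7 of 7 higher in pool 1, and 11.32 and 11.01 in the WT LPS pools, against 8.34 to 8.72 in the pools without LPS. T and NK cell markers averaged 8.29 and 7.72 in the CCSP-p52 LPS pools and 8.44 and 7.92 in the WT LPS pools, against 7.30 to 7.98 without LPS. Lung endothelial markers averaged 11.01 and 11.84 in the CCSP-p52 LPS pools and 11.19 and 11.43 in the WT LPS pools, against 12.25 to 12.41 without LPS. Lung epithelial markers averaged 11.90 and 12.36 in the CCSP-p52 LPS pools and 12.02 and 12.12 in the WT LPS pools, against 12.50 to 12.52 without LPS. CCSP-p52 LPS pool 2 was thus the LPS pool nearest to the dox-only pools in the monocyte and macrophage, endothelial and epithelial lists. It was also the nearest in the members. Their mean was 10.97 and 10.04 in the CCSP-p52 LPS pools and 10.67 and 10.34 in the WT LPS pools, against 8.71 to 8.95 without LPS. Plasmacytoid dendritic cell markers averaged 8.41 in CCSP-p52 LPS pool 2, against 8.24 to 8.49 without LPS, and 8.63 in WT LPS pool 2. The means of some other lists did not share this. Neutrophil markers averaged 10.39 in CCSP-p52 LPS pool 2 and 10.35 in WT LPS pool 2, which was nearer to the dox-only pools. Single neutrophil markers went both ways. Csf3r was lowest of the LPS pools in CCSP-p52 LPS pool 2 (10.53), and Ngp in WT LPS pool 2 (9.36). Alveolar macrophage markers averaged 9.05 in CCSP-p52 LPS pool 2 and 8.78 in CCSP-p52 LPS pool 1, against 8.31 to 8.75 without LPS. That mean mixes markers that rose with LPS and markers that fell. CCSP-p52 LPS pool 2 was the nearest to the dox-only pools in Chil3 (10.30) and Car4 (12.27), but not in Mrc1 (9.69). For B cell markers CCSP-p52 LPS pool 2 was the farthest, at 7.27, where the lowest dox-only pool averaged 7.96. The part of these lists in the order of the LPS pools was not tested.

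**Figure D4:**
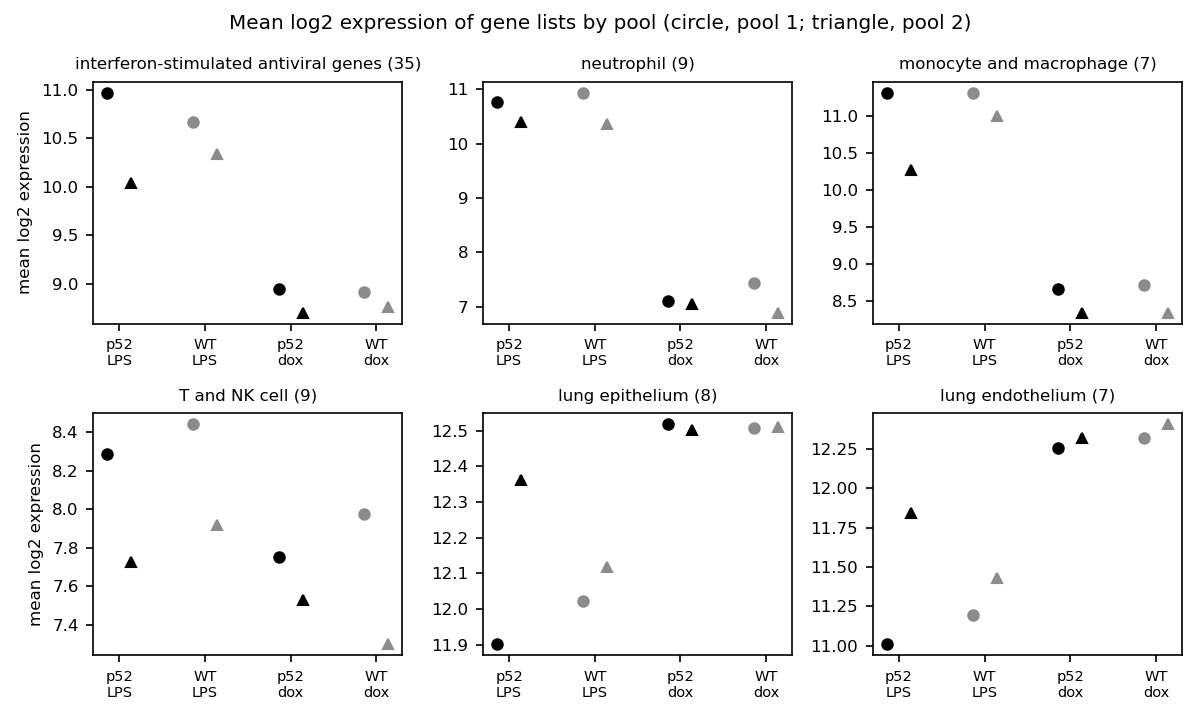
Mean log2 expression of the 35 measured members and of 5 marker lists (number of genes in brackets) in each pool of CCSP-p52 LPS (black, left), WT LPS (grey), CCSP-p52 dox (black) and WT dox (grey, right) lungs, with circles for pool 1 and triangles for pool 2 and a separate axis range in each panel. The CCSP-p52 LPS pools differ by 10.97 against 10.04 in the members and by 11.32 against 10.28 in monocyte and macrophage markers, and in the opposite direction in endothelial markers.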

How the data were processed

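Whole-lung RNA of 8 pools was hybridised to Affymetrix Mouse Gene 1.0 ST arrays. The deposited values are log2 expression values that the authors made by Robust Multichip Average (background correction, quantile normalization and summary per probe set) with the R package oligo. The deposited table held 35556 rows, of which 21218 had 1 gene symbol in the platform annotation, 1881 several and 12457 none. Array medians were 7.48 to 7.54.

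Models were fitted with limma 3.58.1 (R 4.3.3) on all rows with 1 symbol, with Benjamini-Hochberg adjustment over them: additive factors p52 and LPS, after the study's methods, which describe a model over all samples with both factors, and a model of 4 group means for contrasts within a genotype or condition and for the interaction. Background shares count 1 row per gene, that with the highest mean over the arrays. The procedure was tested on simulated data with independent errors on each array and no differences shared by a pool. That test therefore does not cover the pool differences seen here. Exact permutation tests cannot pass 0.05 with 2 pools against 2, where the smallest p is 0.33, and were not used. Values on each array are given for the 12 members with the largest LPS difference, up to 2 members of each role with the lowest p, and any whose call a left-out array ended. Other pathway genes were named by lowest p, up to 4 per list, besides Ifnb1, named for its role. The members, lists and tests were chosen with earlier results of these data known. Alternatives were the rows tested, a filter on low values, the mean of several rows per gene, normalization again, median centring, intensity trend with robust moderation, array weights, the replicate block, an adjusted p under 0.01 and each array left out.

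Pairing was checked on all rows. The deviation of a pool from its group mean was compared between pools that carried the same number, and its correlation was 0.140 to 0.347 in the 6 pairs of groups. The pool number was treated as a pairing only in the replicate-block alternative. That choice rests on these values alone, since the labels do not say what pools of a number share. The main models, with the standard errors and p-values given per gene, do not use the pool number.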

Additional observations from a re-analysis of the deposited data

How the results depend on the processing

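The LPS rise kept its direction in every refit of a member, and 275 of 280 refits with 1 array left out and 310 of 312 others passed the threshold. The exceptions were Ddx58 and Samd9l, which also missed an adjusted p under 0.01. At that threshold 33 members rose in the additive model, 5 in CCSP-p52 and 10 in WT lungs. The shares of all genes were not counted there, so these counts stand without a background. With 1 array left out, where a lone pool is assumed to vary like the others, counts were 33 to 35 in the additive model, 0 to 35 in CCSP-p52 lungs (median 1.25 to 2.10) and 5 to 35 in WT lungs. Members at the cut-off for p52 numbered 0 to 2 in the additive model (median -0.19 to 0.14), 0 to 0 without LPS, 0 to 17 with LPS (median -0.49 to 0.43) and 0 to 10 in the interaction (median -0.44 to 0.48).

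With the pool number as a replicate block, 35 members rose in the additive model, 34 in CCSP-p52 and 34 in WT lungs. The shares of all genes were 15.4%, 7.55% and 11.1%. With the block, 0 members reached the cut-off for p52 or the interaction. Of all genes, in either direction, 0.313% reached it in the additive model, 0.919% without LPS, 2.39% with LPS and 4.25% in the interaction. The median SE within a genotype was 0.19, against 0.30 without the block. The CCSP-p52 count was 21 with all rows tested and the WT count 35 with array weights. The shares of all genes were not counted in those fits. Apart from the adjusted p under 0.01, other alternatives without a left-out array moved no count by more than 1.5 times, and 32 members passed the filter on low values. The number of arrays limits precision. The causes of the moves were not tested.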
